A study of Homo sapiens with 38 samples.

Results

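MYCN and 5 genes that lie beside it on chromosome 2p24 were followed through RNA sequencing of 5 human neuroblastoma cell lines. They were chosen by name and position, as genes of the stretch that can be copied together with MYCN in this tumour, and they are 6 of the 49070 genes listed in every file. The lines were BE2C, NB1643, NB1691, CHLA15 and CHLA20, all established lines grown in culture, and each stands for itself only. Whether any of them share a donor was not examined, so they are not counted as separate tumours. CHLA15 and CHLA20 were by far the most alike, with 7.9% of genes called between them against 62.6% to 79.6% for the other pairs. BE2C, NB1643 and NB1691 are known as MYCN-amplified lines, by general knowledge for the last pair, and DNA copy number was not analysed here for any of the lines. BE2C cells were taken at 0 h, 24 h and 48 h of GSK-J4 at 2.5 μM (2 libraries each), or 72 h after transfection of a control siRNA (siCtrl, 2 libraries) or of 1 of 3 siRNAs labelled siKDM6B (N1, N2 and N33, each taken as 1 library). The labels do not say whether the pair of files deposited for each siRNA is 1 library or 2 replicates. The other 4 lines were left untreated or given palbociclib for 72 h, at 300 nM in CHLA15 and CHLA20 and at 3 μM in NB1643 and NB1691 (2 libraries per line and condition). No allele or transgene is named in the labels for any group. The labels give RPMI for BE2C and DMEM for the other lines, whereas the methods name RPMI for neuroblastoma lines including CHLA15, CHLA20 and NB1691, so the medium is uncertain. For BE2C, line and experiment cannot be told apart, and between the CHLA and the NB lines neither can line and dose.

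MYCN encodes a basic helix-loop-helix transcription factor that pairs with MAX and binds E-box sequences at genes of growth, ribosome production and the cell cycle. Its amplification is the best known genomic marker of high-risk neuroblastoma, and the amplified stretch varies in length between tumours, so that its neighbours are carried along in some and not in others. GSK-J4 is a cell-permeable pro-drug of GSK-J1, an inhibitor of the KDM6 histone demethylases, of which KDM6B is one. Palbociclib is an inhibitor of the cyclin-dependent kinases CDK4 and CDK6.

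On the GRCh37 annotation all 6 genes lie on chromosome 2. NBAS, which encodes a subunit of a tethering complex for transport from the Golgi to the endoplasmic reticulum, spans 15307040 to 15701464 on the minus strand. DDX1, a DEAD-box RNA helicase with a part in tRNA ligation, spans 15731302 to 15774470 on the plus strand, and its start lies at -349.4 kb from that of MYCN. MYCN itself spans 16080672 to 16087129 on the plus strand, in 3 exons. MYCNOS is the long non-coding RNA on the opposite strand, at 16058473 to 16082371. GACAT3 is a long non-coding RNA at 16154050 to 16227323, its start 73.4 kb beyond that of MYCN. FAM49A, now named CYRIA, encodes an inhibitor of RAC1 signalling to the actin nucleating WAVE complex, and spans 16730727 to 16847599, its start 766.9 kb away.

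MYCN and MYCNOS share 1700 bases of gene body, of which 98 are exonic in both, or 3.6% of the 2755 exonic bases of MYCN. The sources used here do not state a strand setting of the counting. Reads from that shared stretch can therefore not be told apart, and MYCNOS values carry this uncertainty throughout.

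The start of MYCN is shown because palbociclib acts upstream of the E2F factors and because MYCN changed with it in some lines. A stretch of 30 bases, at chr2:15940365-15940394 of GRCh38.p14 on the plus strand (RefSeq promoter table), runs from base -185 to base -156 relative to the RefSeq start. Capitals mark the letters covered by 2 overlapping matches to E2F-like words.
MYCN: caagtggctTTTGGCGCGAAAgccttggcg
The words searched on both strands of the 250 bases before each start were TTTGGCGC, TTTCGCGC, TTTCCCGC and TTTGCCGC. TTTGGCGC is on the plus strand at -176 to -169, and TTTCGCGC on the minus strand at -172 to -165. Of 35116 promoters in the table, 979 (2.79%) held at least 1 of these words. The promoters of NBAS, DDX1 and GACAT3 and both of those listed for MYCNOS held 0 of them. The E-box CACGTG stood in 2228 promoters (6.34%) and in 0 of those of MYCN, MYCNOS, DDX1, NBAS and GACAT3. A match is a description of letters and not a site.

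Libraries held 36186567 to 93011010 counts on genes, so that 3 counts, taken as the floor, are worth at most 0.0829 CPM before TMM scaling. CPM values, the counts scaled to a common library size, are given after TMM scaling of all 27 libraries together. Nothing in the labels says that replicates came from separate cultures, so p-values measure the spread between these libraries, which may be technical. The 7 adrenergic neuroblastoma markers summed to 1932 to 3396 CPM in untreated BE2C, NB1643, CHLA15 and CHLA20, with all 7 above 1 CPM. In untreated NB1691 they summed to 413 to 454 CPM, with 6 of the 7 above 1 CPM and TH at a mean of 0.688 CPM. DBH was at means of 13.1 CPM there and 12.5 CPM in untreated NB1643, while the other markers were lowest in NB1691. CHGA made the largest part of the sum in BE2C at 0 h, at a mean of 2298 CPM. The 6 mesenchymal markers summed to 75479 to 75593 CPM in untreated NB1691 against 217 to 1333 CPM in the other untreated lines. TH, the rate-limiting enzyme of catecholamine synthesis, was thus near 0 in untreated NB1691, and MYCN itself was low there for a line known as amplified (82.2 and 82.7 CPM). The label NB1691 is therefore used as a name only, and all values given for NB1691 are those of the libraries labelled so. A label speaks of xenograft tissue while the others describe cultured cells. The blood cell markers PTPRC, CD68 and HBB summed to between 0 and 13.4 CPM, the highest being in 1 untreated NB1643 library, where HBB alone was 13.4 CPM. KDM6B, the siRNA target, was not lower in the libraries labelled siKDM6B. The siCtrl libraries held 6.53 and 8.89 CPM of it, against 9.34, 7.43 and 8.40 CPM for N1, N2 and N33.

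MYCN differed widely between untreated lines. BE2C at 0 h and NB1643 stood at the top, NB1691 lay 36.9-fold or more below them, and CHLA20 and CHLA15 were lower again. MYCN was 3119 and 3152 CPM in the BE2C libraries at 0 h, 3094 and 2984 CPM in NB1643, 82.2 and 82.7 CPM in NB1691, 2.87 and 3.34 CPM in CHLA20, and 2.24 and 2.23 CPM in CHLA15. No 2 lines overlapped. As a share of all counts on genes, MYCN took 0.2975% of a BE2C library and 0.3444% of an NB1643 library.

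Between neighbours in this order, BE2C was not separated from NB1643, the 95% interval of the log2 fold change being -0.03 to 0.23 around 0.10 ± 0.060 (SE; edgeR quasi-likelihood test, adjusted p = 0.171). That comparison turned with the scaling, to -0.23 on library totals alone (adjusted p = 0.00121), and DESeq2 called it at 0.13 (adjusted p = 0.0318). With the siCtrl libraries standing for BE2C, MYCN was lower in BE2C than in NB1643 by -0.94 (adjusted p = 4.27e-09), so the order of these lines rests on which BE2C controls are used. NB1643 exceeded NB1691 by 5.20 ± 0.073 on the log2 scale, NB1691 exceeded CHLA20 by 4.79 ± 0.082, and CHLA20 exceeded CHLA15 by 0.45 ± 0.103, with edgeR adjusted p = 2.9e-17, 2.5e-16 and 0.0139. The last of these calls was lost with limma-voom (adjusted p = 0.091) and on leaving out CHLA15 replicate 1, CHLA15 replicate 2 or CHLA20 replicate 2 (adjusted p = 0.11, 0.0894 and 0.16). The distance from BE2C to CHLA15 was 10.54 ± 0.096, a 1490-fold difference.

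**Figure D1:**
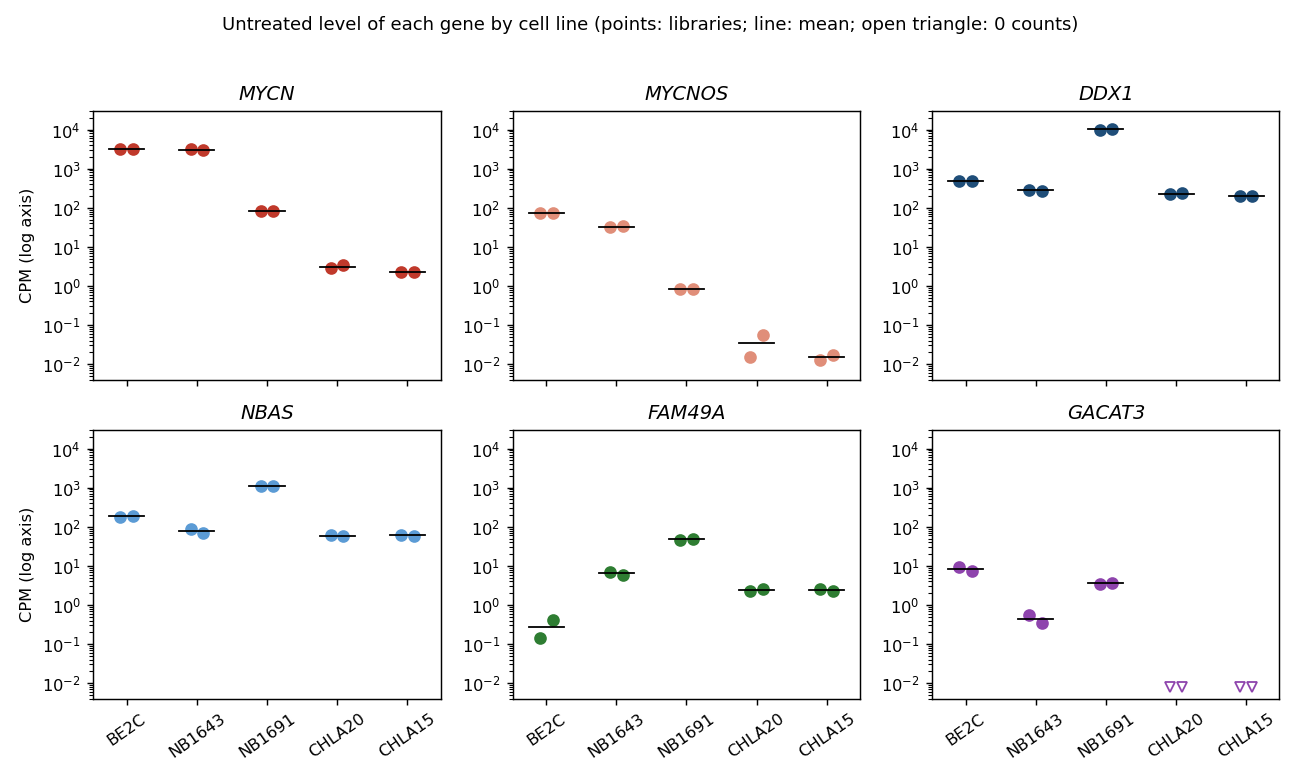
Level of each gene in untreated cells, in CPM on a log axis, for the 5 lines with 2 libraries each. Points are libraries, lines are means and open triangles are 0 counts. MYCN and MYCNOS fall from BE2C to CHLA15, whereas DDX1, NBAS and FAM49A are highest in NB1691.

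MYCNOS followed the same order of lines. It was 72.2 and 72.1 CPM in BE2C, 32.7 and 33.2 CPM in NB1643, 0.856 and 0.822 CPM in NB1691, and at 1 to 3 counts in each untreated CHLA library. BE2C was above NB1643 by 1.18 ± 0.077 on the log2 scale (edgeR adjusted p = 1.85e-09), and NB1643 above NB1691 by 5.30 ± 0.113. With the siCtrl libraries standing for BE2C, the first difference turned to -0.28. In counts, MYCN exceeded MYCNOS by 43.2 and 43.7 times in BE2C, by 94.7 and 89.8 times in NB1643 and by 96.1 and 100.6 times in NB1691.

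DDX1 had its highest level in NB1691 and not in the lines with the most MYCN. Its values were 9931 and 10248 CPM in NB1691, 477 and 486 CPM in BE2C, 286 and 269 CPM in NB1643, 225 and 234 CPM in CHLA20, and 205 and 200 CPM in CHLA15. DDX1 made up 0.8593% of the counts of an untreated NB1691 library. NB1691 was 51.1-fold above CHLA15 (5.68 ± 0.068 on the log2 scale) and 20.2-fold above BE2C (4.34 ± 0.064), with edgeR adjusted p = 1.42e-17 and 4.29e-17. BE2C was 1.80-fold above NB1643, and NB1643 was 1.25-fold above CHLA20 (edgeR adjusted p = 2.39e-09 and 0.000145). CHLA20 and CHLA15 did not pass the test at 0.17, with a 95% interval of 0.05 to 0.29 (adjusted p = 0.0859), and DESeq2 called the difference (adjusted p = 0.00897).

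NBAS, next to DDX1, was also highest in NB1691. Untreated libraries held 1097 and 1130 CPM of it in NB1691, 179 and 188 CPM in BE2C, 85.8 and 67.5 CPM in NB1643, and 56.8 to 61.1 CPM in the CHLA lines. NB1691 stood 19.0-fold above CHLA15 (4.25 ± 0.081) and 5.86-fold above BE2C (edgeR adjusted p = 7.14e-16 and 7.24e-14). BE2C was 2.49-fold above NB1643 and NB1643 was 1.34-fold above CHLA20 (edgeR adjusted p = 2.73e-10 and 0.000122), while CHLA20 and CHLA15 overlapped (-0.04, 95% interval -0.20 to 0.12).

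FAM49A was highest in NB1691 as well, at 45.9 and 49.9 CPM, and lowest in BE2C, at 0.143 and 0.410 CPM or 5 and 14 counts. NB1643 lay between them at 6.93 and 5.92 CPM, and the CHLA lines at 2.32 to 2.58 CPM. NB1691 exceeded CHLA15 by 20.2-fold (4.33 ± 0.120), and BE2C was below CHLA15 by 8.26-fold (-3.05 ± 0.27), with edgeR adjusted p = 4.33e-14 and 6.33e-08. At these few counts the difference from CHLA15 was -2.48 without BE2C replicate 1, -3.99 without BE2C replicate 2 and -2.34 with siCtrl as BE2C. CHLA20 and CHLA15 did not differ by the test (-0.01, 95% interval -0.32 to 0.30).

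GACAT3 had 0 counts in all 8 CHLA libraries, treated or not. It reached 9.32 and 7.59 CPM in BE2C, 3.47 and 3.63 CPM in NB1691, and 0.546 and 0.351 CPM in NB1643. Set against the floor of 3 counts per library, BE2C was at least 188-fold higher than CHLA15, NB1691 at least 79.2-fold and NB1643 at least 10.0-fold. BE2C exceeded NB1691 by 2.47-fold (1.30 ± 0.169, edgeR adjusted p = 9.58e-06), and NB1691 exceeded NB1643 by 7.78-fold (adjusted p = 3.17e-08).

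Set per kb of the Ensembl canonical transcript, so that genes can be compared, MYCN led in BE2C and NB1643, with means of 1200 ± 8.75 (SD, n = 2) and 1163 ± 29.8 CPM per kb. DDX1 led in NB1691, with 4062 ± 90.1 CPM per kb, followed by NBAS at 153 ± 3.17 and MYCN at 31.6 ± 0.131 CPM per kb. In CHLA20 DDX1 was again highest, at 92.4 CPM per kb, with NBAS at 8.09, MYCN at 1.19 and FAM49A at 0.524 CPM per kb. The MYCN to DDX1 ratio of counts was 6.54 and 6.48 in BE2C, 10.8 and 11.1 in NB1643, and 0.00828 and 0.00807 in NB1691.

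These counts have to be read against a background in which most genes differ between lines. Of the 6 members, 5 were called between BE2C and NB1643, where 71.2% of the 21193 genes tested were called, MYCN being the exception. All 6 were called between BE2C and NB1691, CHLA20 and CHLA15 (background 79.4%, 70.9% and 71.6%), between NB1643 and NB1691, CHLA20 and CHLA15 (79.6%, 62.6% and 62.9%), and between NB1691 and CHLA20 and CHLA15 (76.2% and 76.7%). Between CHLA20 and CHLA15 only MYCN was called, where 7.9% of genes were. The share of members called is therefore read as no result. Between NB1691 and CHLA20 the median over the members was 4.70 on the log2 scale and that over all genes 0.09, which describes 6 genes chosen for their place. The mesenchymal markers were higher in NB1691 with the 3 members that peaked there, and their part in those levels was not tested.

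Beyond the members, 40 genes listed in every file start within 5 Mb of MYCN, and 27 of them were tested. Between NB1691 and CHLA15, 23 of these 27 were called, 12 higher and 11 lower, with 11 past 2-fold, beside 76.7% of all genes called. The nearest tested gene towards the end of the arm beyond NBAS, FAM84A (now LRATD1), lies 1.31 Mb from MYCN and was 319 and 326 CPM in untreated NB1691 against 4.68 to 21.4 CPM in the other untreated lines. NB1691 exceeded CHLA15 in FAM84A by 6.14 ± 0.074 on the log2 scale (edgeR adjusted p = 1.42e-17), a difference larger than that of any member with counts in CHLA15. Farther out, PQLC3, MATN3 and SDC1 were higher in NB1691 than in CHLA15, by 5.56, 3.76 and 1.62, while GREB1, TRIB2 and GEN1 were lower, by -4.61, -3.31 and -1.07 on the log2 scale. From FAM84A to FAM49A every tested gene was higher in NB1691 than in CHLA15, and the next tested gene on either side, TRIB2 at -3.2236 Mb and VSNL1 at 1.6397 Mb (-0.76), was lower. In BE2C, FAM84A was above CHLA15 by 0.84 and FAM49A below it by 3.05 (-3.05), and in NB1643 both were above it, by 2.16 and 1.44. Set against each other, FAM84A was lower in BE2C than in NB1643 (-1.32), whereas ROCK2, WDR35 and SMC6 were higher in BE2C, by 1.29, 1.24 and 1.02. KCNS3 and VSNL1, beyond FAM49A, had 0 to 2 counts in each BE2C library at 0 h and means of 10.4 and 5.77 CPM in NB1643. In all, 10 neighbours were higher and 12 lower in BE2C than in NB1643, beside 71.2% of all genes called. MYCNUT, a non-coding RNA 20.2 kb before MYCN, reached a mean of 0.234 CPM in NB1643 and 0.0509 CPM in NB1691 and had 0 counts in untreated BE2C, CHLA20 and CHLA15.

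**Figure D2:**
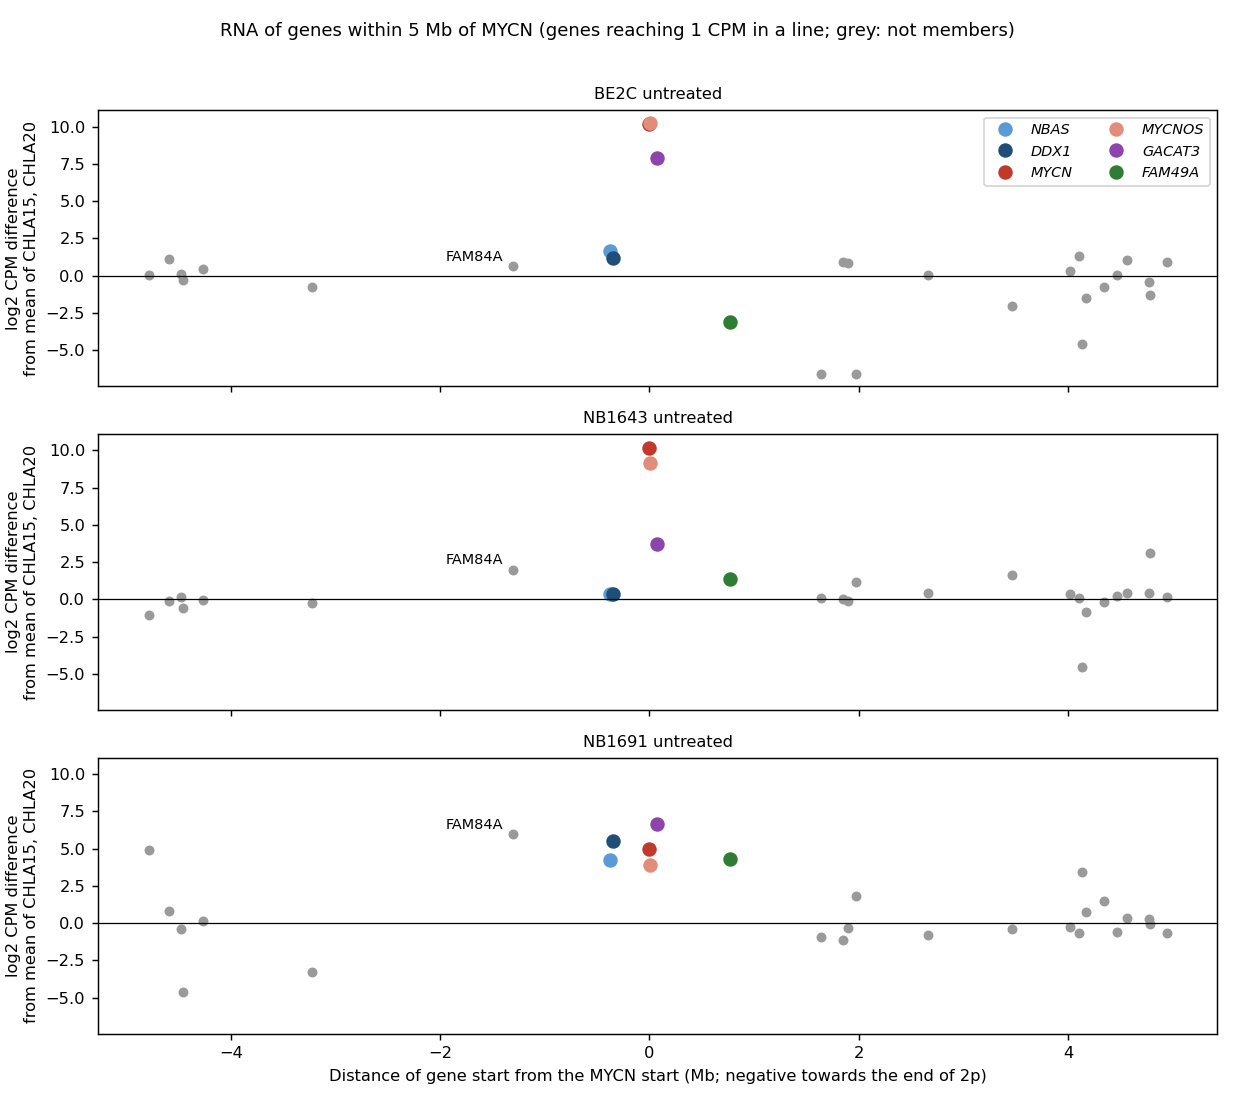
Log2 CPM (prior count 2) of untreated BE2C, NB1643 and NB1691 minus the mean of untreated CHLA15 and CHLA20, by distance of the gene start from that of MYCN in Mb. Coloured points are members and grey points the other genes that reach 1 CPM in a line. In NB1691 all 6 members and FAM84A lie at 3.89 or above. So does PQLC3 (4.91) at -4.79 Mb, with MATN3 at 3.44 on the other side, at 4.13 Mb. In BE2C MYCN, MYCNOS and GACAT3 lie at 7.88 or above and FAM49A lies at -3.13.

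The paralog MYC was highest in the untreated lines where MYCN was lowest. It was 656.7 to 701.4 CPM in the CHLA lines, 69.6 and 63.3 CPM in NB1691, 0.205 and 0.315 CPM in BE2C, and 0.601 and 0.0879 CPM in NB1643. MYC was lower in BE2C than in CHLA15 by -11.26 ± 0.238 and in NB1691 by -3.33 ± 0.130 on the log2 scale (edgeR adjusted p = 5.22e-15 and 2.52e-12). Of 18 genes known as MYC targets, 17 were called between BE2C and CHLA15 (71.6% of all genes were), 12 higher and 5 lower, with NPM1, a nucleolar chaperone, at 2.11 and LDHA at -3.62. Between NB1691 and CHLA15, where 76.7% of all genes were called, all 18 were called, 14 of them lower, and the 2 largest differences were MDM2 at 6.49 and CDK4 at 4.48. Of 11 factors known to act at the MYCN locus, 10 were lower in NB1691 than in CHLA15 and 1 was higher, led by ISL1 at -3.86 and GATA3 at -3.37.

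The genes whose levels were most like those of MYCN were found by Pearson correlation of log2 CPM among the 14723 genes whose mean reached 1 CPM. Over all 27 libraries they were GATA4 (r = 0.996), C8orf49 (0.991), CDH18 (0.9705), MRFAP1 (0.958) and RNF5P1 (0.954). Over the 10 untreated libraries they were MRFAP1L1 (0.997), C8orf49 (0.997), GATA4 (0.996), IQCB1 (0.994) and EIF3D (0.993). Among members, MYCNOS reached 0.993 and GACAT3 0.818 over all libraries, while NBAS had 0.314, DDX1 0.0931 and FAM49A -0.280. These libraries come from 5 lines only and share line and experiment, so the values describe the order of the lines. GATA4, a transcription factor of the heart and endoderm, was 59.2 and 60.6 CPM in untreated BE2C, 59.5 and 50.6 CPM in NB1643, 5.07 to 6.13 CPM in NB1691, and 0.273 to 0.463 CPM in the CHLA lines.

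With GSK-J4 in BE2C cells, 5 of the 6 members fell by 48 h and FAM49A was not called. MYCN went from 3119 and 3152 CPM at 0 h to 1827 and 1890 CPM at 24 h and to 1603 and 1558 CPM at 48 h. The times did not overlap, and most of the fall came in the first day. MYCN fell by 0.83 ± 0.026 on the log2 scale at 24 h and by 1.06 ± 0.026 at 48 h (edgeR adjusted p = 9.98e-30 and 2.63e-34), a fold of 2.08. It fell further between 24 h and 48 h, by 0.22 ± 0.026 (adjusted p = 6.04e-10).

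MYCNOS fell with it, from 72.2 and 72.1 CPM to 43.8 and 46.8 CPM at 24 h and 37.8 and 37.3 CPM at 48 h. Its log2 fold changes were -0.75 ± 0.043 and -1.01 ± 0.043 (edgeR adjusted p = 7.53e-20 and 3.43e-25). The ratio of MYCN to MYCNOS counts stayed between 40.4 and 43.7 over the 6 libraries.

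GACAT3 had the largest fold change of the members here. Its values went from 9.32 and 7.59 CPM to 3.02 and 3.72 CPM and then to 2.65 and 2.86 CPM, with 130 to 325 counts. It fell by 1.69 ± 0.127 at 48 h, a 3.23-fold change (edgeR adjusted p = 2.56e-16), and the step from 24 h to 48 h was not called (-0.29, adjusted p = 0.0914).

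DDX1 and NBAS fell less. DDX1 went from 477 and 486 CPM to 413 and 405 CPM and to 323 and 328 CPM, so that it fell by 0.31 ± 0.028 and 0.63 ± 0.028 (edgeR adjusted p = 2e-13 and 1.23e-24). NBAS overlapped between 0 h (179 and 188 CPM) and 24 h (181 and 179 CPM) and was 157 and 156 CPM at 48 h. It fell by 0.30 ± 0.031 over the 48 h (edgeR adjusted p = 1.4e-11). Its change at 24 h, -0.10 ± 0.031, was called (adjusted p = 0.0042) but was lost under upper-quartile normalization (adjusted p = 0.125), without 0 h replicate 2 (0.111) and without 24 h replicate 2 (0.0653).

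FAM49A had only 5 to 33 counts per BE2C library. It was 0.143 and 0.410 CPM at 0 h, 0.761 and 0.515 CPM at 24 h, and 0.455 and 0.572 CPM at 48 h. The rise at 24 h, 1.13 ± 0.443 on the log2 scale (edgeR adjusted p = 0.0279), was lost with DESeq2 (adjusted p = 0.122), without 0 h replicate 1 (0.56, adjusted p = 0.377) and without 24 h replicate 1 (0.82, adjusted p = 0.245).

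**Figure D3:**
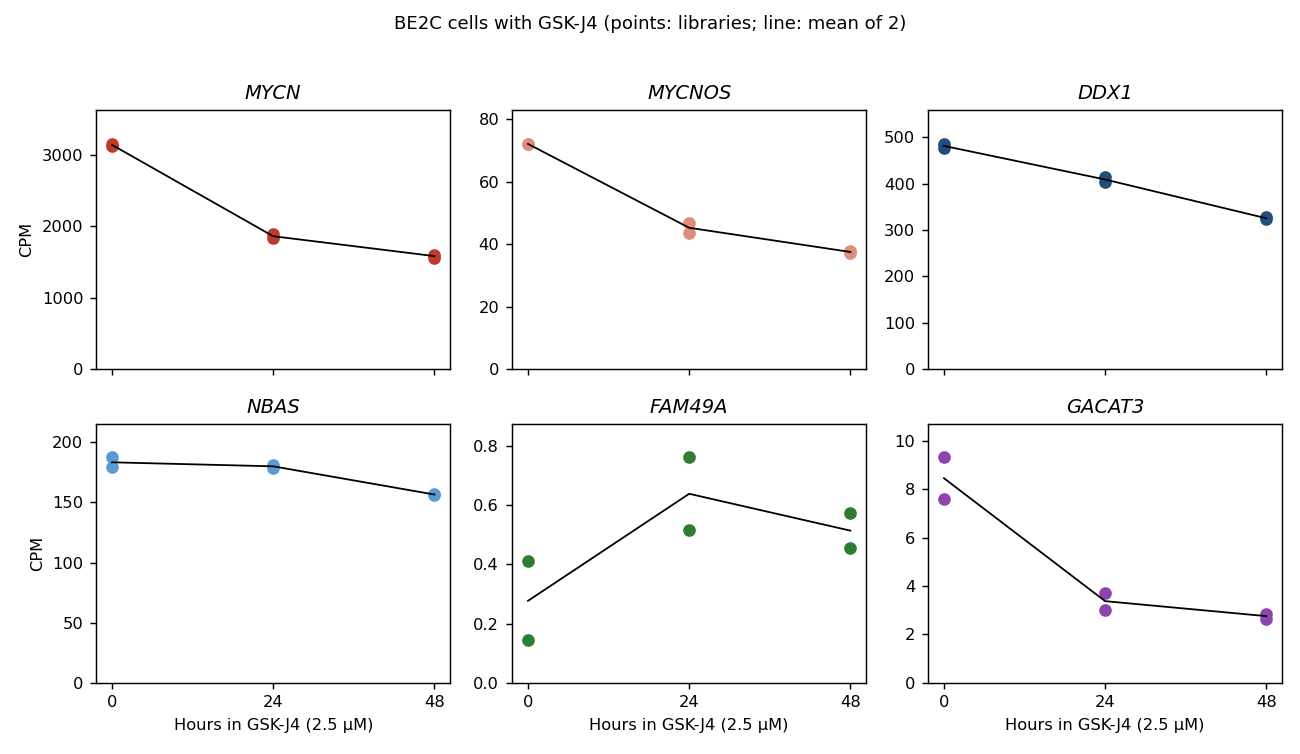
Level of each gene in BE2C cells in CPM (axes from 0, scaled for each gene) against hours in GSK-J4 at 2.5 μM. Points are the 2 libraries at each time and lines join their means. All but FAM49A are lowest at 48 h.

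At 24 h, 6 members were called where 55.3% of the 17734 genes tested were. At 48 h it was 5, all lower, beside 71.5% of genes, and from 24 h to 48 h it was 4, all lower, beside 53.9%. The median member stood at -0.82 at 48 h and the median gene at 0.05. No untreated cells were taken at 24 h or 48 h, so GSK-J4 and time in culture cannot be told apart. Nor can fewer cells that make a transcript and less of it per cell, in any bulk library here. The siCtrl libraries, at 72 h and without GSK-J4, stood near or below the 48 h values for MYCN, MYCNOS and NBAS. They held 1611 and 1636 CPM of MYCN, 28.8 and 26.5 CPM of MYCNOS, and 158 and 156 CPM of NBAS. For DDX1 (466 and 445 CPM) and GACAT3 (17.9 and 17.4 CPM) they stood above the 48 h values. These cells were transfected, and the part of time or transfection was not tested. Summed mesenchymal markers went from 217 and 229 CPM at 0 h to 559 and 561 CPM at 48 h, while the adrenergic markers went from 3335 and 3396 CPM to 3041 and 3026 CPM, and their part was not tested. The mesenchymal sum was carried by VIM, at a mean of 180.2 CPM and then 505.3 CPM, and of the 5 markers tested at 48 h 2 were higher, while CD44 was lower (-1.10). HBB was at 9.26 CPM in 1 of the 48 h libraries and at 0.0880 CPM in the other, and MYCN was 1603 and 1558 CPM in the pair.

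Other genes of the pathway are given beside the 71.5% of all genes called at 48 h. Of 18 MYC targets, 16 were called at 48 h, 12 lower and 4 higher, with a median of -0.45. NME1, a nucleoside diphosphate kinase, fell by 1.501 ± 0.035 on the log2 scale, and CCND2, a D-type cyclin at 0 counts in both 0 h libraries, reached a mean of 0.691 CPM. All 7 genes that act on the stability of the MYCN protein were called, 4 lower and 3 higher. PLK1, a mitotic kinase, fell by 2.44 ± 0.045 and AURKA, the kinase that shields MYCN from degradation, by 1.59 ± 0.038. Of 11 MYC network genes, 10 were called, 6 higher and 4 lower. MYC rose from a mean of 0.260 CPM to 1.93 CPM (2.82 ± 0.317), still far below MYCN, and MXD3, a MAX-binding repressor, fell by 1.27 ± 0.085. Of the 11 locus regulators 10 were called and all were lower, among them the adrenergic factor ISL1 (-1.17 ± 0.034). At 24 h, beside 55.3% of all genes, the calls were 17 of 18 targets (12 lower), 6 of 7 stability genes (4 lower), 7 of 11 network genes (3 lower) and 7 of 11 regulators (6 lower). Of 20 tested neighbours within 5 Mb, 14 were called at 48 h, 9 lower and 5 higher, and the 1 past 2-fold was LINC01376, at 0.115 and 0.479 CPM.

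The 3 libraries labelled siKDM6B did not move the members alike. The siCtrl libraries held 1611 and 1636 CPM of MYCN, N1 held 1810.5 CPM, N2 held 1814.5 CPM and N33 held 474 CPM. N33 alone lay below both siCtrl libraries. With N1, N2 and N33 taken as 1 group against siCtrl, 0 of the 6 members were called by edgeR, and 0 at an unadjusted p under 0.05, where 0% of the 17472 genes tested were called. DESeq2 and limma-voom, with the same grouping, also called 0 members. The spread in this grouping includes that between 3 different siRNAs. These counts can therefore not show that no siRNA moved a member. The log2 fold change of MYCN was -0.29 ± 0.533 with a 95% interval of -1.57 to 0.99, and without N33 it was 0.12. With the spread taken from all 11 BE2C libraries, 5 members were called in this grouping. With each deposited file as a sample, the counts of members called were 0 for the group, 5 for N1, 5 for N2 and 4 for N33, the same as with files summed. Where a pair of files is 1 library, this fit counts it again as a sample, so the equal counts are no support.

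Each siRNA is taken as 1 library. To test it on its own, the spread was taken from a fit of all 11 BE2C libraries in 7 groups, so the lone library is assumed to vary like the others, and a p-value compares these libraries and not the siRNAs. In N33, MYCN was lower by -1.79 ± 0.042 on the log2 scale, a 3.46-fold change (edgeR adjusted p = 3.01e-26). In N1 and N2 it was higher by 0.11 ± 0.038 and 0.12 ± 0.038 (adjusted p = 0.0188 and 0.0104). N1 and N2 also stood apart in reads outside annotated genes, at 24.0% and 22.8% of the counts on genes, against 17.0% and 17.2% in siCtrl and 17.1% in N33, and the part of this was not tested.

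GACAT3 gave the widest range of the members. Against 17.9 and 17.4 CPM in siCtrl, N1 held 26.3 CPM, N2 held 23.3 CPM and N33 held 1.83 CPM, or 84 counts. N33 was 9.70-fold lower (-3.28 ± 0.151, edgeR adjusted p = 1.27e-18), whereas N1 was higher by 0.52 ± 0.094 and N2 by 0.36 ± 0.094 (adjusted p = 1.89e-05 and 0.00167). The value in N2 did not pass with DESeq2 (adjusted p = 0.0516).

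For MYCNOS the siCtrl libraries held 28.8 and 26.5 CPM, N1 held 23.8 CPM, N2 held 32.3 CPM and N33 held 11.1 CPM. It was lower in N33 by -1.33 ± 0.085 (edgeR adjusted p = 4.55e-15) and in N1 by -0.27 ± 0.076 (adjusted p = 0.00324). In N2 it was higher by 0.18 ± 0.070 (adjusted p = 0.032), a call lost with DESeq2 (adjusted p = 0.0893) and without siCtrl replicate 2 (0.09, adjusted p = 0.301). The ratio of MYCN to MYCNOS counts was 55.9 and 61.7 in siCtrl, 76.1 in N1, 56.2 in N2 and 42.7 in N33.

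DDX1 behaved otherwise. N33, at 464 CPM, lay within the siCtrl range of 445 to 466 CPM (0.01, 95% interval -0.08 to 0.10, adjusted p = 0.832). It was lower in N1, at 296 CPM (-0.68 ± 0.046, edgeR adjusted p = 4.68e-14), and in N2, at 412 CPM (-0.19 ± 0.044, adjusted p = 0.000558). On library totals the value in N33 was 0.13 (adjusted p = 0.00522). For NBAS the siCtrl libraries held 158 and 156 CPM, and N1, N2 and N33 held 145, 201 and 185 CPM. Its log2 fold changes of -0.17, 0.31 and 0.22 were all called. FAM49A had 9 to 21 counts in these libraries and was not called for any siRNA.

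**Figure D4:**
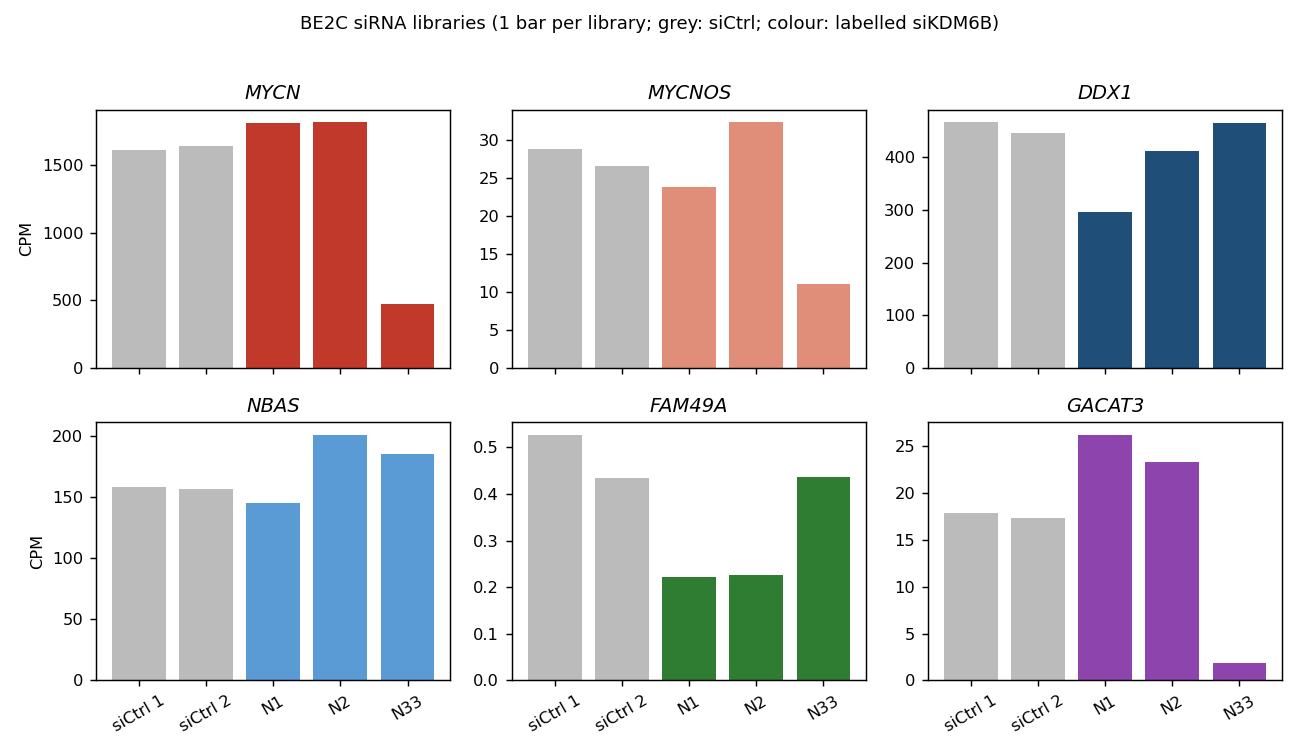
Level of each gene in the 5 BE2C siRNA libraries in CPM, with axes from 0 and 1 bar per library. Grey bars are siCtrl and coloured bars the libraries labelled siKDM6B. N33 is lowest for MYCN, MYCNOS and GACAT3 but not for DDX1 or NBAS.

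The calls were 5 members in N1, 2 higher and 3 lower, beside 52.4% of the 19873 genes tested, 5 in N2, 4 higher and 1 lower, beside 48.4%, and 4 in N33, 1 higher and 3 lower, beside 60.5%. The 3 members lowest in N33 are MYCN itself, MYCNOS, which overlaps it, and GACAT3, 73.4 kb away. FAM49A, farther out on the side of GACAT3, had 20 counts in N33, and the part of distance was not tested. KDM6B was not called in any of these libraries (edgeR adjusted p = 0.153, 0.524 and 0.514). In N33 the adrenergic markers summed to 697 CPM against 2095 and 2219 CPM in siCtrl, with all 7 above 1 CPM, and the mesenchymal markers to 107 CPM against 356 and 365 CPM. Their part in the N33 values was not tested.

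Of the 18 MYC targets, 15 were called in N33, where 60.5% of all genes were, and all 15 were lower, with a median of -0.68 over the list against -0.01 over all genes. CAD, which starts pyrimidine synthesis, was lower by -1.64 ± 0.064 and PTMA by -1.32 ± 0.046. In N1, 13 were called, 10 of them lower, led by CAD (-0.92) and LDHA (-0.89), and in N2 13 were called, 11 of them lower, led by MDM2 (-1.15) and LDHA (-1.05). All 11 locus regulators were called in N33, 9 lower and 2 higher. E2F2 was lower in N33 by -2.02 ± 0.123. Of the stability genes 5 of 7 were called in N33, 4 lower, with PLK1 at -1.97 ± 0.078 and AURKA at -1.17 ± 0.060, and AURKA was also lower in N1 (-0.93) and N2 (-0.43). Of the network genes 6 of 11 were called in N33, 5 lower, led by MXD3 (-2.60 ± 0.136) and MLX (-1.02 ± 0.060). MAX-binding MXD1 was higher in N1 (0.95), N2 (0.34) and N33 (1.0), and MLXIP, a partner of MLX, was higher in N1 (0.30) and N2 (1.18). Among 21 tested neighbours within 5 Mb, 18 were called in N33, 9 in each direction. RHOB, a small GTPase 4.57 Mb away, was lower by -2.07 ± 0.058, and HS1BP3, 4.77 Mb away, was higher by 1.12 ± 0.078.

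Palbociclib moved MYCN in different directions in different lines. It fell in NB1643 and CHLA20 and rose in NB1691. The NB1643 controls held 3094 and 2984 CPM and the treated libraries 2194 and 2109 CPM. MYCN fell there by 0.53 ± 0.052 on the log2 scale, a 1.44-fold change (edgeR adjusted p = 1.55e-07). In NB1691 the controls held 82.2 and 82.7 CPM and the treated libraries 98.3 and 96.5 CPM, a rise of 0.27 ± 0.054 (adjusted p = 0.000703). The libraries did not overlap in either line.

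At the lower dose, MYCN was 2.87 and 3.34 CPM in CHLA20 controls and 1.98 and 2.17 CPM with palbociclib, a fall of 0.57 (-0.57 ± 0.101, edgeR adjusted p = 0.000252) on 129 to 187 counts. In CHLA15 it was 2.24 and 2.23 CPM and then 1.92 and 2.21 CPM, which was not called (-0.15, 95% interval -0.37 to 0.07, adjusted p = 0.389).

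GACAT3 rose in both lines given 3 μM. It went from 0.546 and 0.351 CPM (40 and 20 counts) to 0.980 and 1.14 CPM in NB1643 and from 3.47 and 3.63 CPM to 9.19 and 10.1 CPM in NB1691. These are rises of 1.17 ± 0.233 and 1.47 ± 0.146 on the log2 scale, or 2.26-fold and 2.77-fold (edgeR adjusted p = 0.000924 and 2.15e-06). In NB1643 it therefore rose while MYCN, 73.4 kb away, fell.

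FAM49A went in opposite directions in the same lines. In NB1643 it rose from 6.93 and 5.92 CPM to 8.65 and 8.96 CPM (0.42 ± 0.082, edgeR adjusted p = 0.000377), and in NB1691 it fell from 45.9 and 49.9 CPM to 36.8 and 38.1 CPM (-0.33 ± 0.066, adjusted p = 0.000752). In CHLA20 it fell from 2.32 and 2.58 CPM to 1.84 and 1.74 CPM (-0.44 ± 0.117, adjusted p = 0.0073). That call was lost in a fit of CHLA20 alone (adjusted p = 0.0607) and without CHLA20 palbociclib replicate 2 or control replicate 2 (0.0625 and 0.0678). CHLA15 was not called (-0.19, adjusted p = 0.24). In NB1691 the mesenchymal markers summed to 85599 and 94707 CPM with palbociclib and the adrenergic markers to 606 and 612 CPM, both above the controls, and their part in these changes was not tested. FN1 and COL1A1 carried the mesenchymal sum, and of the 6 markers 3 were higher and 2, VIM and CD44, lower.

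DDX1 fell in NB1691, from 9931 and 10248 CPM to 8397 and 8499 CPM (-0.23 ± 0.045, edgeR adjusted p = 0.000619), and was not called in the other lines, where 95% intervals were -0.09 to 0.10 in NB1643, -0.10 to 0.09 in CHLA20 and -0.04 to 0.15 in CHLA15. NBAS was called only in CHLA15, at -0.20 ± 0.062 (adjusted p = 0.0223), from 58.8 to 61.1 CPM in controls to 53.01 and 54.15 CPM. This call was lost on leaving out any 1 of the 4 CHLA15 libraries (adjusted p = 0.0603 to 0.173). MYCNOS was not called in NB1643 (32.7 and 33.2 CPM, then 37.7 and 34.0 CPM) or NB1691 (0.856 and 0.822 CPM, then 0.726 and 0.775 CPM), and had 0 to 3 counts in every CHLA library. The ratio of MYCN to MYCNOS counts went from 94.7 and 89.8 to 58.3 and 62.1 in NB1643 and from 96.1 and 100.6 to 135.4 and 124.4 in NB1691.

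**Figure D5:**
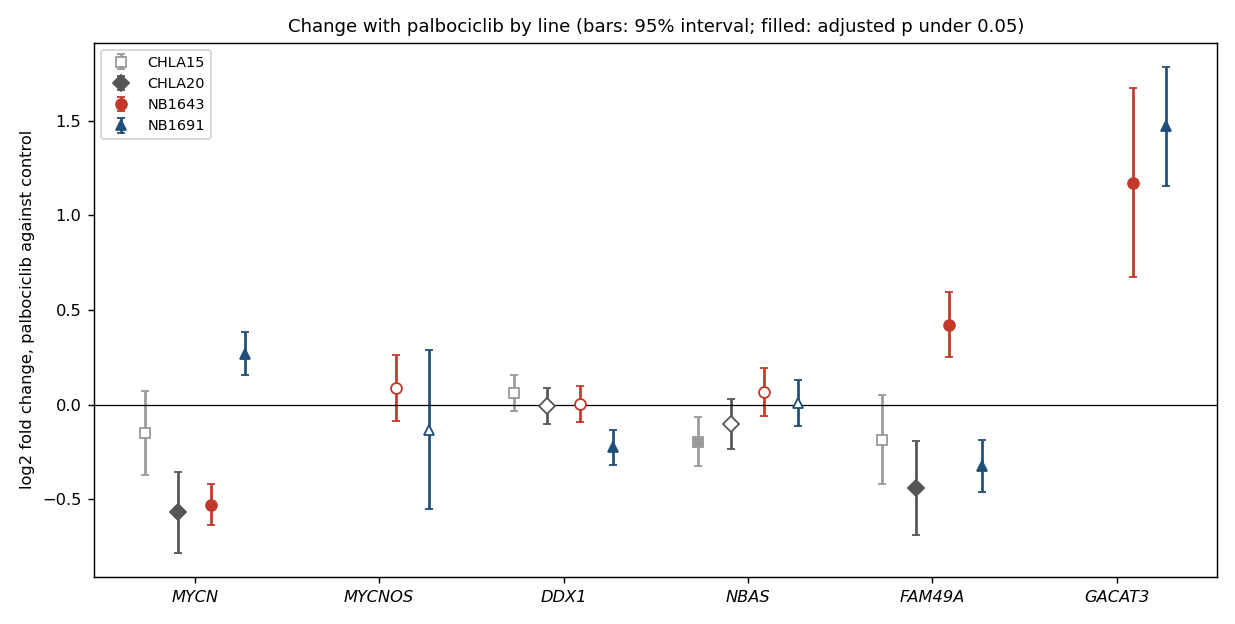
Log2 fold change of each gene with palbociclib against control in the 4 lines (2 against 2 libraries each). Bars are 95% intervals, filled markers have an edgeR adjusted p under 0.05, and gene and line pairs at 3 counts or fewer are left out. MYCN lies below 0 in NB1643 and CHLA20 and above 0 in NB1691.

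The members called were 1 in CHLA15, 2 in CHLA20, 3 in NB1643 and 4 in NB1691, beside 29.8%, 29.6%, 39.9% and 32.8% of the 22133 genes tested. Whether the change differed between lines was tested itself. With all 4 lines, the change differed for MYCN (edgeR adjusted p = 5.99e-07), FAM49A (5.98e-05) and DDX1 (0.00634), and did not pass for NBAS (0.0798), MYCNOS (0.405) or GACAT3 (0.848), where 38% of genes passed. GACAT3 had 0 counts and MYCNOS 0 to 3 counts in the CHLA libraries, so this test cannot show their change to be alike across lines. The value for DDX1 was lost without NB1691 control replicate 2 (adjusted p = 0.0535), and NBAS passed without NB1643 control replicate 1 (0.000962). In NB1643 and NB1691, which share the dose, the change in NB1643 minus that in NB1691 was -0.80 ± 0.075 for MYCN, 0.75 ± 0.105 for FAM49A and 0.23 ± 0.064 for DDX1 (adjusted p = 3.66e-07, 4.09e-05 and 0.0127), and the other 3 members were not called, beside 22% of genes. Between CHLA20 and CHLA15, also at 1 dose, 0 members were called by edgeR, beside 2.02% of genes, and the difference for MYCN was -0.42 ± 0.147 (adjusted p = 0.187). MYCNOS and GACAT3 had too few counts there to be judged.

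Of the 18 MYC targets, 13 were called in NB1643, 12 of them lower, and 12 in NB1691, 11 of them lower, beside 39.9% and 32.8% of all genes, with list medians of -0.33 and -0.30. MCM7, a subunit of the replicative helicase, fell by 1.39 ± 0.049 in NB1643 and by 0.98 ± 0.050 in NB1691. Also in NB1643 TERT, the telomerase reverse transcriptase, fell by 1.12 ± 0.172. CCND2 was higher in NB1691 by 1.504 ± 0.376. In CHLA15, 8 of 18 targets were called, 7 lower, and in CHLA20 12, 10 lower.

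Among the stability genes, 5 of 7 were called in each NB line. PLK1 fell by 4.01 ± 0.072 in NB1643 and 3.44 ± 0.075 in NB1691, and AURKA by 2.64 ± 0.079 and 2.38 ± 0.071. In the CHLA lines 3 of 7 were called, with PLK1 at -0.49 in CHLA15 and -0.47 in CHLA20 and AURKA at -0.44 and -0.65. Of the network genes, MXD3 fell by 4.02 ± 0.114 in NB1643, by 2.19 ± 0.098 in NB1691 by 1.02 ± 0.082 in CHLA15 and by 0.77 ± 0.082 in CHLA20. MXD1 rose in all 4 lines, by 0.89 in CHLA15, 0.93 in CHLA20, 0.84 in NB1643 and 0.46 in NB1691. In all, 5, 5, 5 and 7 of the 11 network genes were called in CHLA15, CHLA20, NB1643 and NB1691. Of the locus regulators 8 of 11 were called in NB1643, 4 in each direction, 6 in NB1691 (4 lower), 7 in CHLA15 (5 lower) and 5 in CHLA20 (4 lower). E2F2 and E2F1 fell by 3.74 ± 0.125 and 2.41 ± 0.064 in NB1643 and by 2.95 ± 0.120 and 1.40 ± 0.065 in NB1691. E2F3, also on the list, went from a mean of 61.5 to 53.5 CPM in NB1643 and from 50.1 to 46.4 CPM in NB1691. In CHLA15 it went from 90.3 to 107.1 CPM. MYCN fell in NB1643 (-0.53) and rose in NB1691 (0.27). The E2F-like words at the MYCN start were not assigned to any E2F factor, and the part of these factors was not tested. ISL1 rose in CHLA15, CHLA20 and NB1643, by 0.50, 0.75 and 0.47, and stood at -0.03 in NB1691 (adjusted p = 0.731). Of 28 tested neighbours within 5 Mb, 5, 9, 17 and 15 were called in CHLA15, CHLA20, NB1643 and NB1691. In NB1643 12 of the 17 were lower, and VSNL1, a neuronal calcium sensor 1.64 Mb beyond MYCN, fell by 1.68 ± 0.132. FAM84A fell in NB1691 by 0.30 ± 0.062, as did DDX1 and FAM49A there. Between them on the chromosome, MYCN (0.27) and GACAT3 (1.47) rose, and NBAS was not called (0.0075, edgeR adjusted p = 0.947). In NB1643 FAM84A did not pass (0.02, edgeR adjusted p = 0.865).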

How the data were processed

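Total RNA was sequenced from both ends by the authors, who aligned reads to GRCh37 (hg19) and ran htseq-count per gene. The submitters' processing notes name CASAVA, STAR 2.5.3a and HTSeq. The authors deposited raw whole-number counts per gene symbol, not normalized. The methods name a mouse annotation, though the symbols are human. Of the 38 files, the 22 of BE2C were summed in pairs into 11 libraries. For siCtrl and GSK-J4 the titles number replicate and file. For N1, N2 and N33 they give 1 number only, so that the sum is an assumption. The chi-square per degree of freedom was 1.48 to 1.651 within the 11 pairs, against 1.926 to 4.041 between replicates in 4 pairs. The 5 summary rows of each file were left out (no feature 6.278% to 24.0% of the counts on genes, ambiguous 2.976% to 4.328%).

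Here, edgeR 4.0.16 (R 4.3.3) was used with TMM, filterByExpr, quasi-likelihood F tests and Benjamini-Hochberg adjustment over all genes tested, with a threshold of 0.05. There were 4 kinds of fit: the 10 untreated libraries, 6 GSK-J4, 5 siRNA (with 11 BE2C for single siRNAs) and 16 palbociclib libraries. Groups came from the sample labels. CPM has a single TMM scale over 27 libraries. A member can pass filterByExpr through the group where it is high, and all 6 passed in every fit. Positions and lengths are from GENCODE on GRCh37, where 29770 of 52360 symbols matched directly and 1328 by an older symbol. Promoters are from RefSeq on GRCh38.p14, with no entry for FAM49A.

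The members and lists were chosen with earlier results of these data known. Members are named everywhere, neighbours among those called past 2-fold, at most the 5 on each side with the highest mean CPM, and from each list up to 2 called genes with the largest change (MYC target genes, MYCN protein stability, MYC network, MYCN locus regulators), and the 5 genes most like MYCN by correlation. Some regulators, HAND2 and GATA3 among them, are also adrenergic markers. Some genes the rule names are not reported here. The same-dose tests between NB1643 and NB1691 and between CHLA20 and CHLA15 were added after seeing the data. FAM84A, VSNL1 and MYCNUT were singled out after their values were seen. So were E2F3 and list genes named in further groups (MYC, MXD1, MXD3, ISL1, AURKA, PLK1, MLXIP). Alternatives were DESeq2 1.42.0, limma-voom (limma 3.58.1), library totals, upper quartiles, no filter, a log2 change over 0.5, the compared groups alone, each file as a sample, siCtrl as BE2C and each library left out. Scripts were tested on simulated data. Tables and figures used Python 3.11.15, pandas 2.3.3, numpy 2.4.6 and matplotlib 3.10.9.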

Additional observations from a re-analysis of the deposited data

Results flagged for a closer look

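The change with palbociclib differed between the 4 lines for 3 of the 6 genes, by the interaction term of the edgeR fit. The adjusted p was 5.99e-07 for MYCN, 5.98e-05 for FAM49A and 0.00634 for DDX1. Dose and line cannot be told apart in that test. It cannot judge GACAT3 and MYCNOS, which had at most 3 counts in any CHLA library. In the pair of lines that share the dose of 3 μM, the change in NB1643 differed from that in NB1691 for the same 3 genes, with adjusted p = 3.66e-07 for MYCN, 4.09e-05 for FAM49A and 0.0127 for DDX1. MYCN fell in NB1643 (-0.53) and rose in NB1691 (0.27), FAM49A rose in NB1643 (0.42) and fell in NB1691 (-0.33), and DDX1 was 0.00 in NB1643 and fell in NB1691 (-0.23), all on the log2 scale with 2 libraries on each side. Mesenchymal markers summed to 75479 CPM and 75593 CPM in NB1691 controls and to 388 CPM and 448 CPM in NB1643 controls, and their part was not tested.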

How the results depend on the processing

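Of 96 called changes of members, 87 kept their sign and passed in every alternative except the cut at a log2 change over 0.5. That cut is left out of these numbers and of the next, and its counts of members are given below. Over 1421 alternatives of 126 member changes, 1361 kept direction and side, 21 lost the call, 19 gained it and 20 turned the sign. Where a value turned or a count of called members moved by over 1.5 times, the cause was not tested. MYCN in BE2C against NB1643 turned from 0.10 to -0.23 with library totals and to -0.94 with siCtrl as BE2C, which also turned MYCNOS to -0.28. The count for CHLA20 against CHLA15, 1 member, became 2 with library totals, DESeq2 or no filter and 0 with limma-voom. FAM49A turned there from -0.01 to 0.000405 with DESeq2. A log2 change over 0.5 left 0 members for CHLA20 against CHLA15, for 48 h against 24 h of GSK-J4, for N2 and for palbociclib in CHLA15, 2 for N1, and 1 each for palbociclib in CHLA20 and NB1691. All 11 BE2C libraries gave 5 members for the siRNA group, DESeq2 3 for N2, and CHLA20 fitted alone 1 for palbociclib. With library totals DDX1 in NB1643 turned to -0.0203 (adjusted p = 0.749) and NBAS in NB1691 to -0.0760, or -0.00725 with that line alone. The test in CHLA15 and CHLA20 only, added after seeing the data, gave 0 members against 3 with all 4 lines.

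Leaving out 1 library gave 0 to 2 members for CHLA20 against CHLA15, 0 to 0 for palbociclib in CHLA15 and 1 to 2 in CHLA20. Ranges that crossed 0 were -0.0859 to 0.00208 for NBAS and -0.0944 to 0.0735 for FAM49A between CHLA20 and CHLA15, -0.54 to 0.12 for MYCN and -0.53 to 0.45 for GACAT3 in the siRNA group, both positive only without N33, and -0.0596 to 0.0509 for DDX1 and -0.325 to 0.000904 for FAM49A in N33. With palbociclib they were -0.0610 to 0.0142 for DDX1 in CHLA20, -0.0257 to 0.0430 for DDX1 and -0.0611 to 0.184 for NBAS in NB1643, and -0.0126 to 0.0307 for NBAS in NB1691.

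Same-numbered libraries did not deviate together. Correlations were -0.0713 to 0.0466 in untreated lines, 0.00371 to 0.0183 over the GSK-J4 times and -0.121 to 0.0876 for palbociclib. With 2 libraries per group these values cannot exclude that same-numbered libraries were handled together, and the main fits took them as unpaired. With a replicate block the count of called members was the same in all 18 comparisons that allow one, from 1 to 6 members. The siRNA comparisons allow no block, since N1, N2 and N33 have 1 library each.

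Over all genes, the count for CHLA20 against CHLA15, 1674, was 498, 622, 2927 and 925 on leaving out 1 library. For the siRNA group it was 164 with DESeq2, 84 with no filter, 10714 with all 11 BE2C libraries and 2354 with each file as a sample, against 0. Library totals shifted the median gene by 0.112 to 0.403 on the log2 scale in 7 comparisons and upper quartiles by 0.109 to 0.173 in 5. Depth limits FAM49A in BE2C, at 5 to 33 counts, and MYCNOS in the CHLA lines, at 0 to 3.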
